A study of Mus musculus with 9 samples.

Results

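Cell cycle inhibitor genes were examined for 2 histone marks in mouse MLL-ENL leukemia cells: Cdkn1a, Cdkn1b, Cdkn1c, Cdkn2c and Cdkn2d. They are the CIP/KIP family and the INK4 genes outside the Cdkn2a locus, taken by gene symbol from the deposited count tables, and all 5 were found among 26611 genes with a symbol. MLL-ENL is a fusion of Kmt2a (MLL) with Mllt1 (ENL) that transforms myeloid cells. The 3 groups profiled are labelled fl (floxed here), ΔERT2 (deleted) and ΔERT2 + Hhex-F (rescue), the last carrying Flag-tagged Hhex on the deleted background. The labels do not name the floxed allele, and the series title is the ground for reading it as Hhex; they give no age, strain or agent, and state neither how many animals, clones or cultures a line stands for nor how the deletion was brought about. All 3 lines share the fusion-driven leukemia. Each mark has 1 library per line, so differences between lines cannot be checked against replicates and were not tested. The series title concerns Polycomb repression of Cdkn2a and its dependence on Hhex, and these genes are relatives of that locus.

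CDK inhibitors hold back the kinases that drive cells from G1 into S phase. The CIP/KIP proteins p21 (Cdkn1a), p27 (Cdkn1b) and p57 (Cdkn1c) bind complexes of cyclin and CDK. The INK4 proteins p18 (Cdkn2c) and p19INK4d (Cdkn2d) bind the monomeric kinases Cdk4 and Cdk6, as p16 and p15 from the Cdkn2a and Cdkn2b genes do. H3K27me3 is placed by Polycomb repressive complex 2 and marks silenced genes, while H3K4me3 marks promoters in use.

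Named genes held 2444487, 2535576 and 4203349 H3K27me3 counts in floxed, deleted and rescue, and 645240, 420701 and 395133 H3K4me3 counts. H3K27me3 was counted over whole genes and is given as CPM per kb, CPM being the count scaled to the library's total in named genes and expressed per 1e+06 counts, and H3K4me3 in a window of 301 bp as CPM. Every interval is a 95% interval for counting error only. In the text below, measured genes are those averaging 20 counts or more across a mark's 3 libraries. The size rule calls a measured gene lower or higher if the CPM ratio reaches 1.5-fold either way and its exact interval leaves out 1. Of the myeloid marker genes on the plus strand, 6 of 6 had at least 20 H3K4me3 counts in every library, and of the T-cell and erythroid ones none had in any library. Of 2 B-cell markers on that strand, 1 (Ebf1) reached 20 counts in floxed and deleted and 0 in rescue. The H3K27me3 level of the myeloid markers differed in the rescue library: summed over all 12 it was 2.19, 1.96 and 15.6 CPM per kb in floxed, deleted and rescue, and rescue was above floxed at 10 of the 12. Mpo, the myeloperoxidase gene, had 5, 6 and 483 counts, and without it the sums were 1.99, 1.74 and 4.79. Counts at several of the others were few, as at Elane with 0, 1 and 5. A set of 49 ribosomal protein genes also held more in rescue, with 46, 85 and 224 counts in floxed, deleted and rescue. The difference is therefore not read as particular to myeloid genes. In such bulk chromatin, fewer cells carrying a mark and less of it per cell cannot be told apart.

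The 5 genes fell into 2 classes of H3K27me3. Cdkn1c and Cdkn2c were densely marked and lay above 98.3% and 95.4% of genes in the floxed library, while Cdkn1a, Cdkn1b and Cdkn2d held 0 to 6 floxed counts each, where the median of all genes was 0.204 CPM per kb. In floxed the level was highest at Cdkn1c, with 19.3 CPM per kb (16.1 to 23.0). Cdkn2a followed with 11.7 (10.7 to 12.7), then Cdkn2c with 8.64 (6.99 to 10.6) and Cdkn2b with 5.35 (4.10 to 6.85). No 2 neighbours in this order of 4 had overlapping intervals. Cdkn1a, Cdkn2d and Cdkn1b stood at 0.252 (0.0925 to 0.549), 0.149 (0.00377 to 0.830) and 0 CPM per kb, and their intervals overlapped. For the value of 0 at Cdkn1b, a limit of 3 counts corresponds to 0.239 CPM per kb, and the upper end of the exact interval to 0.294.

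**Figure D1:**
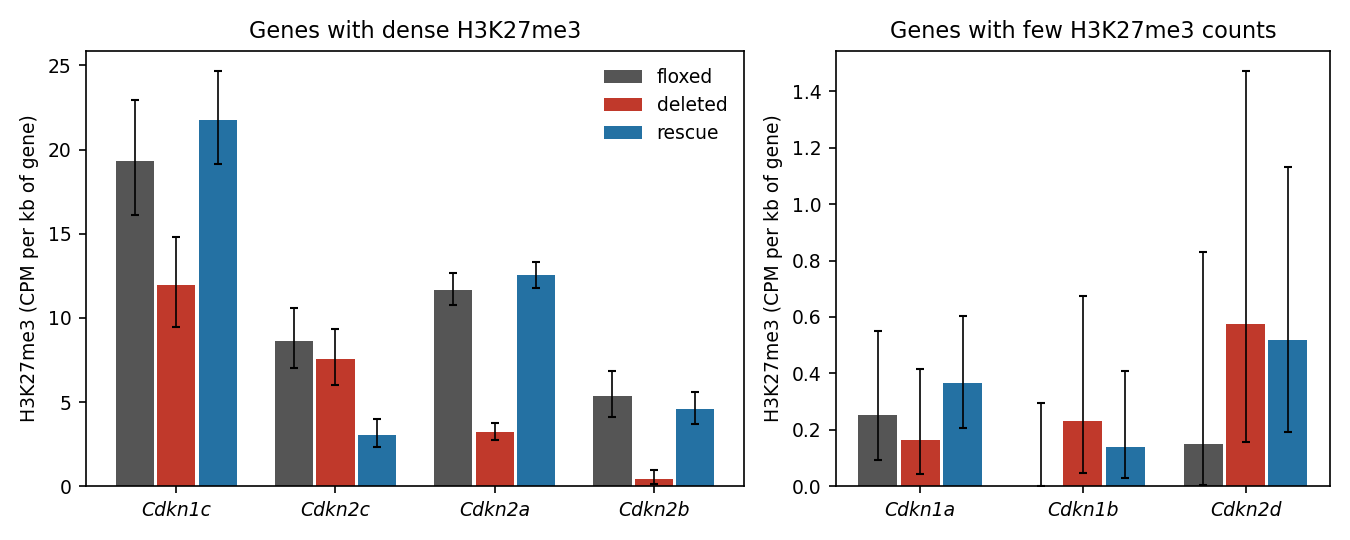
H3K27me3 in CPM per kb of gene (vertical axis, linear, different scale in each panel) in floxed, deleted and rescue, 1 library each; bars are levels and whiskers 95% exact Poisson intervals. Cdkn1c and Cdkn2c stand far above Cdkn1a, Cdkn1b and Cdkn2d; Cdkn1c is lowest in deleted and Cdkn2c lowest in rescue, beside Cdkn2a and Cdkn2b, which are both lowest in deleted.

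Cdkn1c, an imprinted gene that restrains embryonic growth and is known for keeping blood stem cells quiescent, lies at chr7:143458339-143461059 in GRCm38.p6, the assembly also called mm10. Its H3K27me3 counts in the order floxed, deleted, rescue were 128, 82 and 248, which are 19.3, 11.9 and 21.8 CPM per kb. The deleted library was the low one, and the interval of its level (9.48 to 14.8) overlapped neither that of floxed nor that of rescue (19.1 to 24.6). Deleted over floxed gave a CPM ratio of 0.618 (0.462 to 0.821), which made Cdkn1c 1 of the 2 measured members to be lower, against 5.39% of all 10604 measured genes; 0 of the 2 were higher, against 4.72%. For rescue against deleted the ratio was 1.82 (1.42 to 2.37), a call of higher that 7.07% of measured genes also had. Both calls were lost when a ratio of at least 2 was asked for. Rescue and floxed did not differ by the size rule, with a ratio of 1.13 (0.907 to 1.41). Genes this densely marked were low in the deleted library as a group: in the top 10% of measured genes by density, 251 of 1061 were lower and 3 higher, and the median of their log2 ratios was -0.42. Cdkn1c, at -0.69, lay below all but 13.5% of them. In rescue against deleted its log2 ratio of 0.86 lay above 95.9% of that class, whose median was 0.32.

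Around Cdkn1c the mark did not move evenly. Phlda2, an imprinted gene that limits placental growth and lies 40485 bp away, had 113, 65 and 128 counts in floxed, deleted and rescue. It was lower in deleted against floxed with a ratio of 0.555 (0.402 to 0.759), as Cdkn1c was, but also in rescue against floxed, with 0.659 (0.507 to 0.856), a call that TMM factors and size factors both removed. The rescue to floxed ratio of Cdkn1c was 1.71 (1.21 to 2.41) times that of Phlda2, an interval that excludes equal ratios. Slc22a18, a transporter-like gene between both, had 240, 229 and 372 counts and was not called in any comparison. Its deleted to floxed ratio was 0.920 (0.764 to 1.11), and that of Cdkn1c was 0.671 (0.475 to 0.947) times as large. Kcnq1, the potassium channel gene on the other side, had 2094, 1814 and 3804 counts over a much longer span and ratios of 0.835 (0.784 to 0.890) and 1.26 (1.20 to 1.34) for deleted against floxed and rescue against deleted. The non-coding Kcnq1ot1 and 4933417O13Rik lie inside Kcnq1 and were listed at 0 in all 3 libraries; counts of overlapping genes cannot be told apart. Nap1l4, a histone chaperone gene, had 12, 6 and 18 counts and was not measured.

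In the list of 16 genes of this imprinted domain, 8 were measured, 3 of them lower and 0 higher in deleted against floxed, where 5.39% and 4.72% of all measured genes were. Their median log2 ratio was -0.19, beside 0.02 over all measured genes. The 3 were Cdkn1c, Phlda2 and Ascl2, a transcription factor gene needed in the placenta. With a ratio of at least 2 asked for, 0 of these calls in deleted against floxed were kept. In the densest 10% of measured genes, where Cdkn1c lies, 251 of 1061 were lower and 3 higher. The 8 genes were not matched by density, so their share is not read as particular to the domain. Ascl2 counts were 67, 37 and 154, its ratio being 0.532 (0.346 to 0.807), then 2.51 (1.74 to 3.70) in rescue against deleted. Its course and that of Cdkn1c did not differ beyond counting error in any of the 3 comparisons; for deleted against floxed their ratios stood at 1.16 (0.694 to 1.95) to each other. In rescue against deleted 2 of the 8 were higher, Cdkn1c and Ascl2, and 0 lower, against 7.07% and 11.3% of all measured genes. In the densest 10%, 167 of 1061 were higher and 27 lower. Th, Trpm5 and Osbpl5 had deleted to floxed ratios of 1.13, 1.39 and 1.05, none of them called. Of the 4 plus-strand genes of the list measured for H3K4me3, Dhcr7, a cholesterol synthesis gene, was lower in deleted against floxed. It had 35, 10 and 18 counts and 0.438 (0.194 to 0.904) as its ratio, and 0 of the 4 were higher. Of all measured plus-strand genes, 3.97% were lower and 2.99% higher. The Dhcr7 call was lost with a mean of at least 50 counts.

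**Figure D2:**
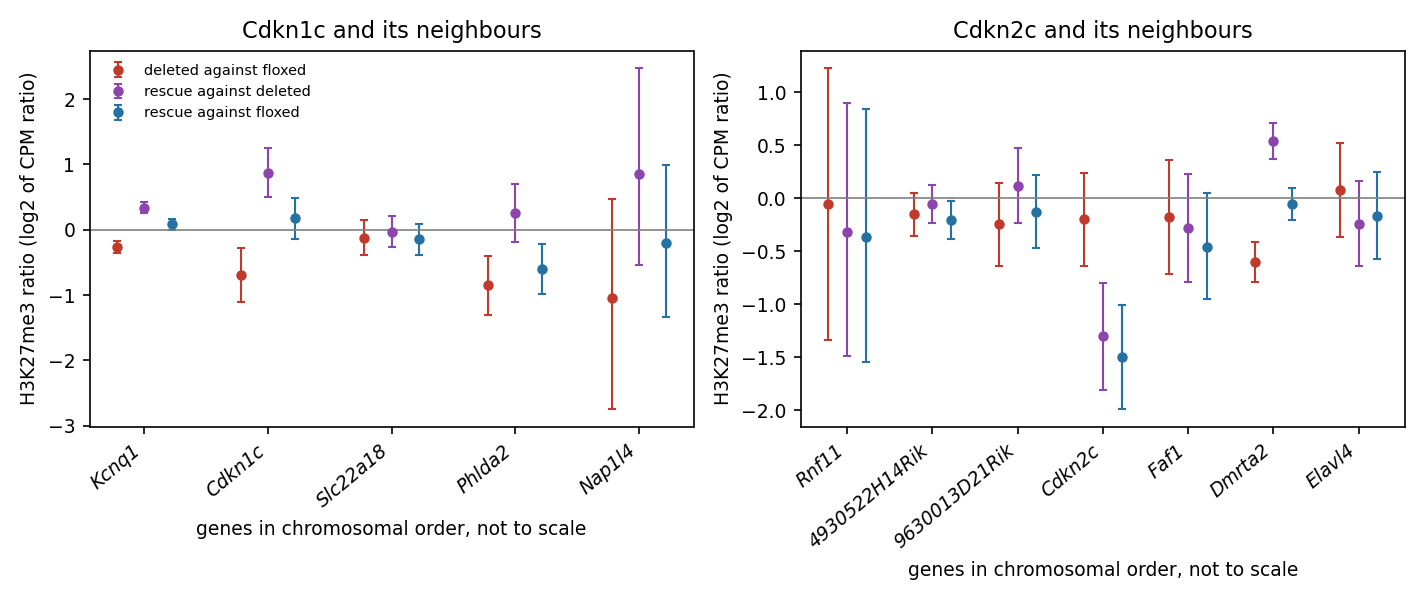
Log2 of the H3K27me3 CPM ratio (vertical axis) of Cdkn1c (left) and Cdkn2c (right) and the nearest named genes on each side in chromosomal order, for 3 comparisons, 1 library per line; points are ratios and whiskers 95% exact intervals, and genes with no count are left out. Cdkn2c is lowest, with CPM ratios of 0.407 and 0.355, in the comparisons with rescue, where its neighbours lie between 0.729 and 1.46; Cdkn1c and Phlda2 are both low in deleted against floxed.

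Cdkn2c, which encodes p18, an inhibitor known to limit self-renewal of blood stem cells, took another course. It lies at chr4:109660876-109666756 on the minus strand. Its H3K27me3 counts were 95, 86 and 58 in the same order, or 8.64, 7.54 and 3.07 CPM per kb. Rescue was the low library, with an interval of 2.33 to 3.97 that overlapped neither of the others, and floxed and deleted overlapped. The deleted to floxed ratio was 0.873 (0.644 to 1.18), not called. In rescue it was lower than in deleted, with a ratio of 0.407 (0.286 to 0.574), and lower than in floxed, with 0.355 (0.252 to 0.497). Genes called lower made up 11.3% and 8.05% of all measured genes in these comparisons, and genes called higher 5.72% in the latter, where 0 of the 2 measured members were higher. The myeloid markers and ribosomal protein genes described above also differed in the rescue library, with more of the mark. Their part in the result was not tested. The Cdkn2c log2 ratio of -1.47 in rescue against floxed lay below all but 0.915% of measured genes, and below all but 0.566% of the 1060 genes most like it in density, whose median was -0.08.

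The gene nearest to Cdkn2c did not share its low value in rescue. The non-coding 9630013D21Rik, 3287 bp away, had 120, 105 and 189 counts, and Faf1, an apoptosis factor gene 9870 bp away on the other side, had 63, 58 and 79. Neither was called in any comparison. Faf1 is many times longer than Cdkn2c, so its counts are thinly spread. They cannot show whether dense marking on that side of Cdkn2c was kept. The rescue to floxed ratio of Cdkn2c was 0.388 (0.255 to 0.589) times that of 9630013D21Rik and 0.487 (0.298 to 0.796) times that of Faf1. Against Dmrta2, a developmental transcription factor gene 311232 bp off with 580, 397 and 958 counts, it was 0.370 (0.258 to 0.527). With the 6 nearest genes pooled, 1294, 1070 and 2020 counts, the rescue to floxed ratio was 0.908 (0.846 to 0.974). That of Cdkn2c stood at 0.391 (0.275 to 0.552) of the pooled ratio. Most of the pooled counts came from Dmrta2 and from 4930522H14Rik, 129578 bp away, with 435, 406 and 649 counts. The pooled ratio therefore describes mainly genes far from Cdkn2c. Deleted against floxed, where the pooled ratio was 0.797 (0.734 to 0.865), Cdkn2c did not differ from the 6 genes beyond counting error, with 1.09 (0.799 to 1.499).

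RefSeq (GRCm38.p6) lists 2 starts for Cdkn2c, and their sequences are shown because they differ in CpG content. Each is the 250 bases before the start, 5′ to 3′ on the gene's strand, with capitals for GGGCGG (the GC box, either strand), ACATGT, and ATTAA (a homeodomain-type core, either strand). The upstream start has chr4:109666757-109667006 before it and the inner one chr4:109665373-109665622.
Cdkn2c upstream start: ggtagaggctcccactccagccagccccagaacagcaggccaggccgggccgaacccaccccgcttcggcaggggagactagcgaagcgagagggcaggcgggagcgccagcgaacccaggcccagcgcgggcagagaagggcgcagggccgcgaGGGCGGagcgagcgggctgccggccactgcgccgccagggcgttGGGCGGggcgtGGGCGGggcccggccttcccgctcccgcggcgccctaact
Cdkn2c inner start: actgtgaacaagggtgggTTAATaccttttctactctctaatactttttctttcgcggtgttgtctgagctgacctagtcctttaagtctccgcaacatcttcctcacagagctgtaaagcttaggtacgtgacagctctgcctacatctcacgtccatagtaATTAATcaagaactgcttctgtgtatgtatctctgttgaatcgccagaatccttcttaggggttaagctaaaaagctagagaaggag
The first holds 29 CpG, more than 93.2% of the 32851 promoter windows of this length, and 3 GC boxes. The second holds 6 CpG, the median of all windows, no GC box and 3 matches to ATTAA, 2 of which overlap. Of all windows, 32.7% hold GGGCGG and 24.9% ATTAA. The counted length of Cdkn2c, 4497 bp, equals that from its low end at 109660876 to the inner start at 109665372. The upstream start at 109666756 would then lie outside the counted span. The H3K27me3 counts are therefore not read as the mark at the upstream start.

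The 3 other members had at most 15 H3K27me3 counts in any library. Cdkn1a, the p53 target gene at chr17:29090979-29100722, had 6, 4 and 15 counts in floxed, deleted and rescue, and levels of 0.252, 0.162 and 0.366 CPM per kb. Its rescue to deleted ratio was 2.26 (0.721 to 9.36), so a difference was not detectable at this depth. Cdkn1b (chr6:134920401-134925525), whose product p27 accumulates in resting cells, had 0, 3 and 3 counts, too few for a ratio. Cdkn2d (chr9:21288459-21291421), the INK4 gene for p19INK4d, had 1, 4 and 6 counts, or 0.149, 0.574 and 0.520 CPM per kb, where the medians of all genes were 0.204, 0.231 and 0.231. Deleted over floxed gave 3.86 (0.382 to 189.9) and rescue over floxed 3.49 (0.423 to 160.5). None of the 3 was measured, so none could be called, and the intervals leave room for several-fold differences. Unlike Cdkn2d itself, S1pr5, a lipid receptor gene 40015 bp from it, was densely marked, with 253, 137 and 413 counts. It was lower in deleted against floxed (0.522, 0.421 to 0.645) and higher in rescue against deleted (1.82, 1.495 to 2.22). Beside Cdkn1a, Cpne5 held 563, 627 and 887 counts and was not called, and the p53-induced non-coding RNA gene Trp53cor1 held 17, 17 and 18. Apold1, near Cdkn1b, had 44, 35 and 60 counts and was not called.

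Cdkn1c had the same calls as Cdkn2a in all 3 H3K27me3 comparisons, and Cdkn2c had others. The ratios of Cdkn1c were nearer to 1 than those of Cdkn2a in the comparisons that involve deleted. In rescue against floxed they were 1.13 and 1.07. Cdkn2a had 575, 164 and 1060 counts. The deleted to floxed ratio of Cdkn1c was 2.25 (1.59 to 3.15) times that of Cdkn2a, and that of Cdkn2c was 3.17 (2.22 to 4.52) times that of Cdkn2a. In rescue against deleted the ratio of Cdkn1c was 0.468 (0.344 to 0.640) times that of Cdkn2a, and in rescue against floxed they did not differ beyond counting error, at 1.05 (0.825 to 1.34). Cdkn2c differed from Cdkn2a in rescue against floxed as well, at 0.331 (0.231 to 0.472). Between Cdkn1c and Cdkn2c the ratios differed in rescue against deleted, at 4.48 (2.90 to 6.95), and in rescue against floxed, at 3.17 (2.11 to 4.78). In deleted against floxed they did not differ beyond counting error, at 0.708 (0.464 to 1.08). In all, 12 such comparisons between genes were made over both marks and 21 with neighbouring genes, and the intervals are not adjusted for their number.

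H3K27me3 directions depend on how the libraries are put on one scale. Scaled to ribosomal protein genes as background, the median log2 ratio of all measured genes moved from 0.02 to -0.80 for deleted against floxed, from -0.06 to -0.72 for rescue against deleted and from -0.05 to -1.54 for rescue against floxed. On that scale Cdkn1c had log2 ratios of -1.51, 0.20 and -1.32 and Cdkn2c -1.02, -1.94 and -2.96, so that Cdkn1c in rescue against deleted was no longer called and ended below floxed. The scale rests on 46, 85 and 224 counts in 49 genes.

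The H3K4me3 windows needed a check before use, since the sources used here do not say where they lie. Among protein-coding genes with a RefSeq strand, 4523 of 8376 on the plus strand (54.0%) had a mean of at least 20 counts, against 323 of 8408 on the minus strand (3.84%). In 420 gene pairs with starts within 150 bp of each other on opposite strands and the plus-strand gene measured, the median was 66 counts for the plus-strand gene and 0.667 for its partner. For minus-strand genes, the share with 20 counts or more was 37.1% where the low-coordinate end of the gene lay within 500 bp of the start of another gene, and 1.56% where it lay beyond 10000 bp. These values are those of windows at the low-coordinate end of each gene on either strand, which would be the start of Cdkn1a and Cdkn1b and the far end of Cdkn2c and Cdkn2d. For minus-strand genes, Cdkn2a and Cdkn2b included, the window is therefore not read here as the gene's own promoter. For Cdkn1c the strand was not used here, and its window is given by its counts only.

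**Figure D3:**
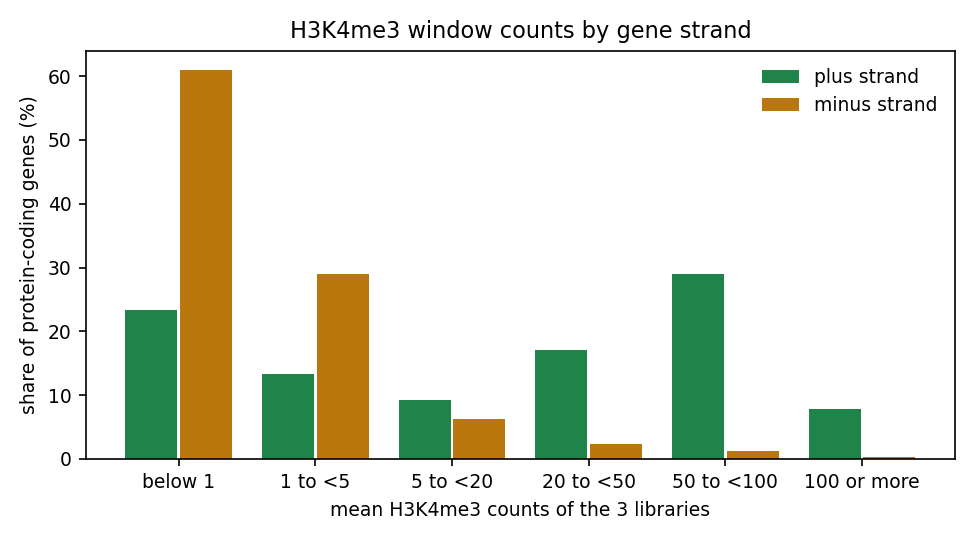
Share of protein-coding genes (vertical axis, percent) by mean H3K4me3 count of the 3 libraries in the 301 bp window (horizontal axis, classes), for genes on the plus and the minus strand. Plus-strand genes reach 20 counts or more in 54.0% of cases and minus-strand genes in 3.84%.

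At Cdkn1a, H3K4me3 lay above 81.4% of all named genes in floxed, 93.4% in deleted and 87.9% in rescue. That ranking includes minus-strand genes, whose windows mostly held few counts. Of plus-strand protein-coding genes, 29.0% averaged 50 to under 100 counts and 7.88% averaged 100 or more. Reads numbered 58, 73 and 52 in floxed, deleted and rescue, which are 89.9, 174 and 132 CPM. The interval for deleted (136 to 218) did not overlap that of floxed (68.3 to 116), and rescue (98.3 to 173) overlapped both. The deleted to floxed ratio was 1.93 (1.35 to 2.77), and Cdkn1a was the 1 of 2 measured plus-strand members called higher, as were 2.99% of 4781 measured plus-strand genes; 0 of the 2 were lower, against 3.97%. Its log2 ratio of 0.93 lay above 99.3% of all measured genes. The rescue to deleted ratio was 0.758 (0.521 to 1.10) and the rescue to floxed ratio 1.46 (0.987 to 2.17), neither called. In these comparisons 0 of the 2 plus-strand members were called either way. Of measured plus-strand genes, 5.73% were lower and 3.99% higher in rescue against deleted, and 3.74% and 1.88% in rescue against floxed. The call in deleted against floxed was kept under every scaling tried and lost when a ratio of at least 2 was asked for.

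Cdkn1b was not called for H3K4me3 in any comparison. The window had 47, 34 and 31 counts in floxed, deleted and rescue, or 72.8, 80.8 and 78.5 CPM, with intervals that overlapped throughout. Its CPM ratios were 1.11 (0.692 to 1.76) for deleted over floxed, 0.971 (0.577 to 1.63) for rescue against deleted and 1.08 (0.662 to 1.73) for rescue against floxed. In deleted against floxed the ratio of Cdkn1a was 1.74 (0.958 to 3.17) times that of Cdkn1b, so these 2 genes were not shown to differ. Of the nearest plus-strand genes next to Cdkn1b, 2810454H06Rik, with 57, 22 and 28 counts, was lower in deleted against floxed (0.592, 0.345 to 0.984). The other, 1190002F15Rik, with 71, 51 and 50, was not called (1.10, 0.753 to 1.60). Their intervals overlapped, and the genes were not compared directly. Srsf3, a splicing factor gene near Cdkn1a, had 21, 17 and 9 counts and was not measured.

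**Figure D4:**
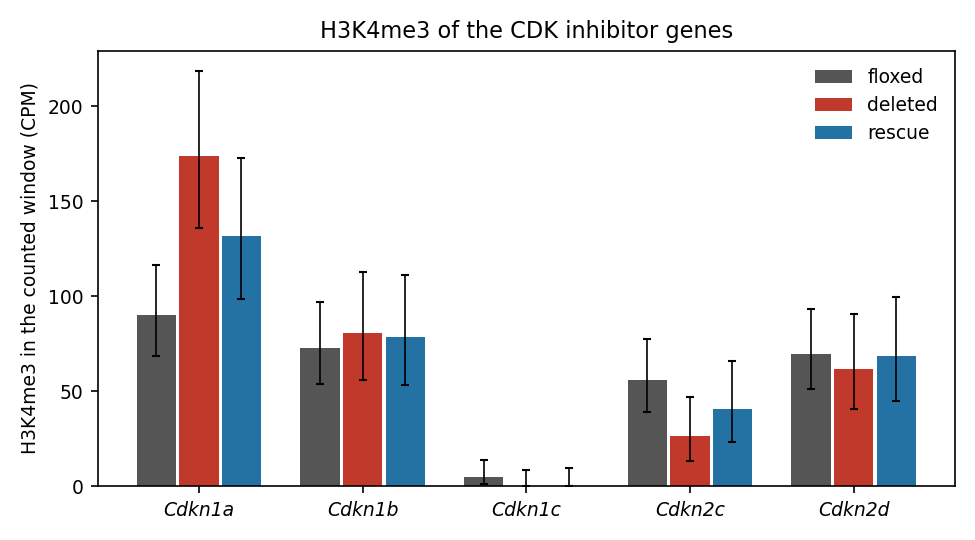
H3K4me3 in the counted window in CPM (vertical axis) for the 5 members in floxed, deleted and rescue, 1 library each; bars are levels and whiskers 95% exact Poisson intervals. Cdkn1a is highest in deleted at 174 CPM, Cdkn1b stays between 72.8 and 80.8, and the windows of Cdkn2c and Cdkn2d are not read as the starts of these genes.

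Cdkn1a also has 2 starts in RefSeq, on the plus strand, which are shown because the H3K4me3 difference at Cdkn1a bears on a start and the 2 differ in CpG content. The window at the low-coordinate end would hold the upstream start, with chr17:29090729-29090978 before it, and not the inner one, with chr17:29093519-29093768. Capitals mark the same motifs as for Cdkn2c.
Cdkn1a upstream start: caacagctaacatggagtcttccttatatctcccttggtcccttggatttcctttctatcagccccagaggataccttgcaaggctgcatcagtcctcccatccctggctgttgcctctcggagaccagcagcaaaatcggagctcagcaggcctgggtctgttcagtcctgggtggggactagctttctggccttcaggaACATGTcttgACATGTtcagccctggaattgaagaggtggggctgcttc
Cdkn1a inner start: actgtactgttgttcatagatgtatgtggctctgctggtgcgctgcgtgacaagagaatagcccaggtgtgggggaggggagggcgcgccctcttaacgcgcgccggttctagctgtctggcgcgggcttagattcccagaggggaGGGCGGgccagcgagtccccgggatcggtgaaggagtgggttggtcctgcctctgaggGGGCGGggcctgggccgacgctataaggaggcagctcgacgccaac
The upstream start has 2 CpG in its 250 bases, fewer than most windows, where the median is 6, and no GC box. It holds 2 copies of ACATGT, the first 49 to 44 and the other 39 to 34 bases before the start. This motif, which is its own reverse complement, was chosen after the sequence was read. One copy or more is present in 4.58% of all windows and 2 or more in 0.247%. p53 is known to bind paired sites with a CATG core upstream of Cdkn1a. The inner start has 19 CpG and 2 GC boxes. Cdkn1b, with 1 start, has 28 CpG, 1 GC box and 2 CCAAT boxes in its 250 bases, and Cdkn2d 16 CpG, 3 GC boxes and 1 CCAAT box. CCAAT, on either strand, is present in 33.9% of windows.

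The remaining H3K4me3 windows held few counts or are not read as a start. The Cdkn2c window had 36, 11 and 16 counts. It was lower in deleted against floxed, with a ratio of 0.469 (0.215 to 0.941), as were 4.39% of 6681 measured genes on either strand, and 3.02% were higher. Its rescue to deleted ratio was 1.55 (0.675 to 3.69), not called. The low end of Cdkn2c lies 3288 bp from the nearest start of another gene, and the mark at the 2 starts of Cdkn2c is not read from this window. The Cdkn2d window had 45, 26 and 27 counts and ratios of 0.886 (0.525 to 1.47), 1.11 (0.621 to 1.97) and 0.980 (0.585 to 1.61), none called. Over both strands, 0 of the 4 measured members were called in rescue against deleted, where 5.97% of genes were lower and 4.49% higher, or in rescue against floxed, with 3.92% and 1.92%. The low end of Cdkn2d lies 490 bp from the start of Kri1, a ribosome assembly gene also on the minus strand, so its counts may belong to either gene and cannot be told apart. The Cdkn1c window had 3, 0 and 0 counts. For the counts of 0, a limit of 3 counts corresponds to 7.13 CPM in deleted and 7.59 CPM in rescue, and the upper ends of the exact intervals to 8.77 and 9.34.

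Flag summits, the positions of highest signal that the authors called per library with the antibody against the tag, were absent within 10 kb of any member in the rescue list of 429 and the floxed list of 475. The list of 220 summits from the deleted library, which carries no tagged Hhex by its label, had 1, at position 29104398 of chromosome 17, 3.68 kb beyond the end of Cdkn1a and in no annotated gene. Its score of 3.26 ranked 216 of 220 in that list. In the rescue list the nearest summit lay 3125 kb from Cdkn1a, 1200.3 kb from Cdkn1b, 4134 kb from Cdkn1c, 4086 kb from Cdkn2c and 3251 kb from Cdkn2d. The summits nearest to Cdkn2d, 3251 kb from it in each of the 3 lists, fell at nearly the same place. They stood at 24542129, 24542146 and 24542149 on chromosome 9, in libraries with and without the tag.

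The kinases and cyclins that CDK inhibitors act on, with the Rb and E2F genes, were given as a list of 20. For H3K27me3 8 were measured, and the size rule called 2 lower and 0 higher for deleted over floxed, against 5.39% and 4.72% of all measured genes. The median log2 ratio of the 8 was -0.07, beside 0.02 over all measured genes. The 2 genes called were Ccnd2, a D-type cyclin gene, with 83, 30 and 74 counts (ratio 0.348, 0.222 to 0.535), and Cdk6, the kinase bound by p18 and p19INK4d, with 42, 23 and 61 counts (ratio 0.528, 0.303 to 0.898). In rescue against floxed Ccnd2 was still lower, at 0.519 (0.374 to 0.718), and it was the 1 gene of the list called. Of all measured genes, 8.05% were lower there and 5.72% higher. E2f5 was the 1 gene of the list called in rescue against deleted, lower at 0.431 (0.230 to 0.793), where 11.3% of all measured genes were lower and 7.07% higher. With TMM factors 2 others were called higher. Of the 7 plus-strand genes of the list, all measured for H3K4me3, Rbl2, which encodes the pocket protein p130, was lower in deleted against floxed. It had 120, 49 and 65 counts (ratio 0.626, 0.440 to 0.880), and 0 were higher. Of all measured plus-strand genes, 3.97% were lower and 2.99% higher. Cdc25a, a phosphatase gene that activates CDKs, was lower in rescue against floxed, with 69, 42 and 26 counts (0.615, 0.376 to 0.979). Plus-strand shares there were 3.74% lower and 1.88% higher. Of the calls in this list, only that of Ccnd2 in deleted against floxed was kept under every setting tried. Those of Cdk6, E2f5 and Cdc25a were lost with a mean of at least 50 counts, and that of Cdc25a also with the olfactory receptor background list.

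Genes that control the amount of CDK inhibitors were a list of 20, of which 10 were measured for H3K27me3. In deleted against floxed 1 was lower and 1 higher, against 5.39% and 4.72% of all measured genes, and the median log2 ratio was -0.02. Fbxw7, which encodes the recognition part of a ubiquitin ligase for cyclin E, had 44, 27 and 73 counts. It was lower in deleted (0.592, 0.352 to 0.977) and higher in rescue against deleted (1.63, 1.04 to 2.64), the order also seen at Cdkn1c. Foxo3, a factor that activates Cdkn1b, was higher in deleted against floxed with 11, 26 and 42 counts (ratio 2.28, 1.09 to 5.11), and also in rescue against floxed (2.22, 1.12 to 4.78). In rescue against deleted 1 of the 10 was lower and 2 higher, against 11.3% and 7.07% of all measured genes. In rescue against floxed 1 was lower and 1 higher, against 8.05% and 5.72%. Klf4 was higher in rescue against deleted, at 1.53 (1.28 to 1.84). Smad3, a mediator of TGF-beta signalling, was lower in rescue against deleted (0.647, 0.547 to 0.765), a call lost with TMM factors and with size factors, and lower in rescue against floxed (0.615, 0.520 to 0.726). Of the 7 plus-strand genes measured for H3K4me3, Foxo1 was called, lower in deleted against floxed with 99, 42 and 65 counts (0.651, 0.442 to 0.942) and higher in rescue against deleted (1.65, 1.10 to 2.49). Of all measured plus-strand genes, 3.97% were lower and 2.99% higher in the first, and 5.73% and 3.99% in the second. Each call in this list was lost with a ratio of at least 2 or with a mean of at least 50 counts. Those of Klf4 and Foxo3, and that of Fbxw7 in rescue against deleted, were also lost with the background list.

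Cdkn2c was the 1 member measured for both marks, among 2317 genes that were. Its H3K4me3 values come from the window that is not read as a start of Cdkn2c. The likeness given here is therefore not one of promoters. Leaving out predicted Gm and Rik genes, the genes nearest to it over 6 values, log2 CPM per kb of H3K27me3 and log2 CPM of H3K4me3 in the 3 libraries each, were Chst1, a sulfotransferase gene, at a Euclidean distance of 1.34 log2 units, and Lrrc23, also at 1.34. In floxed, deleted and rescue, H3K27me3 stood at 7.84, 6.19 and 6.52 CPM per kb at Chst1 and at 8.84, 5.60 and 6.98 at Lrrc23. Both were lowest in deleted, whereas Cdkn2c was lowest in rescue.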

How the data were processed

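ChIP-seq of H3K27me3, H3K4me3 and Flag was carried out in 3 MLL-ENL lines, 9 libraries in all. The deposited histone files give raw read counts for each gene, which the authors left unnormalised; per the submitters' processing notes, featureCounts, MACS2 and build mm10 were used, without versions. No aligner is named there. The deposited Flag files hold summits with a −log10 score per library. Rows without a symbol (568, with 0.608% to 0.739% of counts) were left out of totals. CPM used each library's total over named genes. Ratios carry 95% exact conditional binomial intervals and levels exact Poisson intervals (scipy 1.17.1); log2 ratios used a prior count of 1. These intervals widen with lower depth and do not cover variation between cultures. Ratios of 2 ratios carry exact odds ratio intervals. A gene with at most 3 counts in both libraries was given no ratio. The size rule was checked on simulated data. Gene positions, strands and starts came from RefSeq tables of GRCm38.p6, matched by Entrez identifier for 25275 of 26611 named genes; 4 of the 5 members had a promoter entry. Counted lengths in the files differ from RefSeq spans for some genes (Cdkn2c, 4497 against 5881 bp). Alternatives were edgeR 4.0.16 TMM factors, DESeq2 1.42.0 size factors, scaling to a background list (49 ribosomal protein genes for H3K27me3, 1101 olfactory receptor genes for H3K4me3), other filters and thresholds, and, added after seeing the data, plus-strand genes only.

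The members and gene lists were chosen with earlier results of these data known. Genes named are the members, Cdkn2a and Cdkn2b, the 3 nearest genes on each side, called genes of the lists (up to 3 per direction and comparison), and the 2 genes most like a member measured in both marks; S1pr5, Cpne5 and the other flanking genes fall under this rule, and Th, Trpm5 and Osbpl5 were named after their values were seen.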

Additional observations from a re-analysis of the deposited data

How the results depend on the processing

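No paired analysis was possible because each group has 1 library and the labels carry no replicate numbers; for the same reason none could be left out. Of 108 log2 ratios of members under other scalings or a prior count of 5, 102 stayed within the main interval, none that was called changed sign, and 6 moved, all H3K27me3 under the background list.

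Members called for H3K27me3 numbered 1, 2 and 1 for deleted against floxed, rescue against deleted and rescue against floxed. With the background list they were 2, 1 and 2, and with a ratio of at least 2 they were 0, 1 and 1. For H3K4me3 they numbered 2, 0 and 0. In deleted against floxed this became 1 with a ratio of at least 2, with a mean of at least 50 counts and with plus-strand genes only, and in rescue against floxed 1, Cdkn1a, with the background list. Calls with TMM or size factors and with no filter were as many as in the main analysis.

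Over all measured genes, 1072, 1946 and 1461 were called for H3K27me3 in the same order of comparisons. These became 7310, 6605 and 10075 with the background list, nearly all lower, and 322, 807 and 608 with a ratio of at least 2. No filter gave 1614 and 2202 for the comparisons with floxed, and a mean of at least 50 counts 711 and 927. TMM factors moved the split of lower against higher calls for rescue against deleted from 1196 against 750 to 991 against 935. For H3K4me3, 495, 699 and 390 were called, and 112, 274 and 118 with a ratio of at least 2. A mean of at least 50 counts gave 196, 371 and 180, and no filter 861 and 698 for the comparisons with floxed. The background list gave 1726 for rescue against deleted (131 lower, 1595 higher) and 909 for rescue against floxed (77 lower, 832 higher), moving the median log2 ratio of all genes to 0.39 and 0.28, and plus-strand genes only 464 for rescue against deleted. With TMM factors the H3K4me3 split went from 293 against 202 to 403 against 139 in deleted against floxed and from 262 against 128 to 341 against 91 in rescue against floxed. Fewer genes tested, or a stricter size, account for the lower counts by construction; why the background list differs was not tested.

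Of 117 counts for the 3 gene lists, 82 stayed within 1.5 times and 35 did not. Flag summits within 10 kb of a member numbered 1, and 1 within 50 kb. At Cdkn1a, Cdkn1b and Cdkn2d depth limits H3K27me3: differences below several-fold were not detectable.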
